A study of Mus musculus with 108 samples.

Results

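Small RNA pathway genes were followed in single mouse oocytes without Exosc10, which encodes an exosome-associated RNase, and in control oocytes. The set has 10 genes, given as a list of names: Dicer1, Drosha, Dgcr8, Ago2, Tnrc6b, Piwil1, Piwil2, Mov10l1, Mael and Ddx4. All 10 were matched by Ensembl gene ID among the 55573 genes of the count files, and all of them are described below.

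Small RNAs of animal cells are made by separate routes. The microprocessor (the nuclease Drosha with its RNA-binding partner Dgcr8) cuts primary transcripts to microRNA hairpins, and Dicer1 cuts hairpins to microRNAs and long double-stranded RNA to endogenous small interfering RNAs, a class for which mouse oocytes are known. Argonaute proteins such as Ago2 carry both classes, and Tnrc6b links Argonautes to the machinery that removes poly(A) tails. The PIWI proteins Piwil1 and Piwil2 carry piRNAs, germline small RNAs whose production and storage involve the helicase Mov10l1, Mael, and the germ granule helicase Ddx4 (mouse vasa homologue).

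The samples were single oocytes, and their titles gave the stage, the genotype, the female and the oocyte. Controls carried no label beyond control, and the labels call the other group cKO, an Exosc10 knockout restricted to the oocyte. Strain, age of the females and Cre driver are not given in the sources used here. Polyadenylated RNA was measured (polyA libraries) at GV, the immature stage with an intact germinal vesicle, in 15 cKO and 7 control oocytes of 2 and 2 females. At GV3h, after 3 hours of culture, 11 cKO and 8 control oocytes of 3 and 3 females were measured, and at MII, as eggs taken from the oviduct, 15 and 8 oocytes of 3 and 3 females. Libraries made without poly(A) selection (RiboMinus) held 7 cKO and 8 control oocytes at GV, of 2 and 2 females, and 4 and 3 at MII, of 2 and 1 females. Each female gave oocytes of 1 stage and 1 genotype, so p-values over oocytes measure the spread between oocytes that partly share a mother. Where counts were summed per female, the RiboMinus MII control group was 1 sample, V1145, which is assumed to vary like the other groups of the fit.

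PolyA libraries held 4638718 to 8735914 gene counts and RiboMinus libraries 12319658 to 62675760. Exosc10 itself reached at most 8.29 CPM (its counts scaled to library size with TMM factors) in any cKO oocyte, whereas no control oocyte was under 43.0 CPM. All 8 oocyte markers read (Gdf9, Bmp15, Figla, Nlrp5, Ooep and the Zp1, Zp2 and Zp3 genes) were detected in every group. Of 10 granulosa and cumulus markers, Cyp19a1 and Nr5a2 were the most abundant, with group means of 11.9 to 99.1 and 23.5 to 129 CPM, and Has2 (0.215 to 3.73) was also detected in every group. Cyp19a1 averaged 22.1 CPM in polyA GV cKO against 36.8 in controls, and 11.9 against 27.5 in RiboMinus GV. Means of some other markers were higher in cKO, with no test run: Nr5a2 averaged 91.0 against 71.9 CPM and Amh 4.14 against 1.78 in RiboMinus GV, Fshr 2.07 against 0.196 in polyA GV, and Nr5a2 46.8 against 36.0, Inha 3.03 against 0.67 and Fshr 1.43 against 0.318 in GV3h. Inha averaged 5.29 CPM in polyA GV cKO against 7.14 in controls. At GV3h, Cyp19a1 (21.4 against 36.2) and Has2 (0.226 against 0.495) were lower in cKO. RiboMinus MII means went both ways: Fshr averaged 4.23 CPM in cKO against 0.885, Nr5a2 65.6 against 129 and Has2 0.421 against 3.73. The 8 markers other than Cyp19a1 and Nr5a2 together reached at most 47.7 CPM in an oocyte, with group medians of 0.0874 to 8.46. Both maxima were in GV cKO oocytes: the highest sum was 47.7 CPM in RiboMinus GV cKO against 11.5 in controls, and the median was 8.46 CPM in polyA GV cKO against 2.17 in controls (highest sums 17.8 and 19.7). The RiboMinus GV medians were 3.07 CPM in cKO and 4.7 in controls, and Ptx3, a cumulus marker, was at 0 in both polyA GV groups and in RiboMinus GV cKO. More genes were detected in cKO than in control oocytes at polyA GV (20149 to 21753 against 18098 to 19626) and GV3h (20933 to 22147 against 18529 to 19290), as in RiboMinus MII libraries (19957 to 23488 against 17703 to 18004), where the cKO libraries held 20678209 to 62675760 counts and the controls 16220993 to 20447150. Depth ranges overlapped in the polyA sets, with the higher maximum in cKO. They were 5381816 to 7727869 counts against 5535240 to 6700256 at GV, and 5476376 to 8415126 against 4638718 to 5728197 at GV3h. The numbers of genes overlapped at polyA MII (16383 to 18025 against 13699 to 16389) and RiboMinus GV (20885 to 24311 against 20395 to 21790). The part of these markers, of the number of genes detected and of depth in the results below was not tested. Changes are relative to the other genes of a library, so a change in total RNA per oocyte is not seen.

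In mm10, the microRNA pathway genes lie at chr12:104687742-104751952 (Dicer1, minus strand), chr15:12824815-12935291 (Drosha, plus), chr16:18253948-18289246 (Dgcr8, minus), chr15:73095844-73184935 (Ago2, minus) and chr15:80711313-80941085 (Tnrc6b, plus). The piRNA pathway genes lie at chr5:128702524-128755474 (Piwil1, plus), chr14:70372477-70429383 (Piwil2, minus), chr15:88982909-89055152 (Mov10l1, plus), chr1:166201201-166238747 (Mael, minus) and chr13:112598333-112652475 (Ddx4, minus).

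RefSeq promoter windows (GRCm38.p6, 250 bases before the start site) were found for 8 of the 10 genes, and none for Ago2 and Piwil2. The 3 windows printed belong to Tnrc6b, called lower in cKO oocytes in all 5 genotype comparisons over oocytes, to Piwil1, called lower in the 3 polyA ones, and to Mael, whose stage change went in opposite directions in the library types. Only bases outside GENCODE exons are shown, in lower case and 5′ to 3′ on the strand of the gene, with capitals for the motifs CACGTG (E-box) and TCCCGC (core of the E2F motif) or its reverse complement GCGGGA.
Tnrc6b (chr15:80711063-80711312, plus strand): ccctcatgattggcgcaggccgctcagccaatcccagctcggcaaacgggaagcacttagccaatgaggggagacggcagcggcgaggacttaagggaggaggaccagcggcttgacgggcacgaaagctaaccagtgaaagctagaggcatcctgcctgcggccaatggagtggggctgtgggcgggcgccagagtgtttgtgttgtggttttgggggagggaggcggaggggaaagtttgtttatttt
Piwil1 (chr5:128736030-128736173, plus strand): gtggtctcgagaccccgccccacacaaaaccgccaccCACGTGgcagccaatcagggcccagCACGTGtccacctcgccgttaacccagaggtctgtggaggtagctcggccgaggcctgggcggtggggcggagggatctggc
Mael (chr1:166238748-166238994, minus strand): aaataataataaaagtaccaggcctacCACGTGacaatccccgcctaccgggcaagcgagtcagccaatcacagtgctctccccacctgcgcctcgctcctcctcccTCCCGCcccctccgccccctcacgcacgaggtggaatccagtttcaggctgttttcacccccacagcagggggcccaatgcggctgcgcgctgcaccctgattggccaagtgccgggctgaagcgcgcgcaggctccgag
CACGTG is its own reverse complement and does not overlap TCCCGC. On both strands, CACGTG was in 6.0% of 32851 windows of this length and TCCCGC in 16.9%. CACGTG was present in all 4 piRNA genes with a window (Piwil1, Mov10l1, Mael and Ddx4, with 2 copies in Piwil1) and in 1 of 4 microRNA pathway genes, Tnrc6b, there in the window of its second start. TCCCGC was found in 4 of these 4 microRNA pathway genes (Dicer1, Drosha, Dgcr8 and the second start of Tnrc6b) and in 2 of the 4 piRNA genes (Mael and Ddx4). The window printed for Tnrc6b held neither. Both matches of Ddx4 and the 2 TCCCGC copies of Drosha lay in GENCODE exon bases of their windows, so these counts include exon matches. TATAAA (12.4% of windows) and TAATTG (7.2%) were in none of the members' windows. Windows of the members held 8 to 39 CpG dinucleotides, beside a median of 6 over all windows. These are matches of letters and not binding sites.

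Per length, as CPM per kilobase of merged exons (RPKM), Dicer1 or Mael had the highest median of the set in every group; in polyA GV3h cKO oocytes Ddx4 (40.1) stood between Mael (41.9) and Dicer1 (35.7). In polyA controls the median level of Dicer1 was 40.7 RPKM at GV, 39.1 at GV3h and 36.7 at MII. Mael was at 62.7 RPKM in polyA GV controls and at 84.2 in RiboMinus MII controls, but at 8.71 in polyA MII controls. Drosha, at 12 RPKM in polyA GV controls, was well above its partner Dgcr8, at 0.346. The PIWI genes also differed: Piwil1 was at 8.42 RPKM and Piwil2 at 0.357 in the same oocytes. Dgcr8, Piwil2 and Mov10l1 were the low members, with control medians of at most 0.868, 0.984 and 2.41 RPKM. Counts of Dgcr8 are uncertain, since 10.72% of its exon bases lie under Trmt2a on the opposite strand and the strand setting of the counting is not given in the sources used here.

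**Figure D1:**
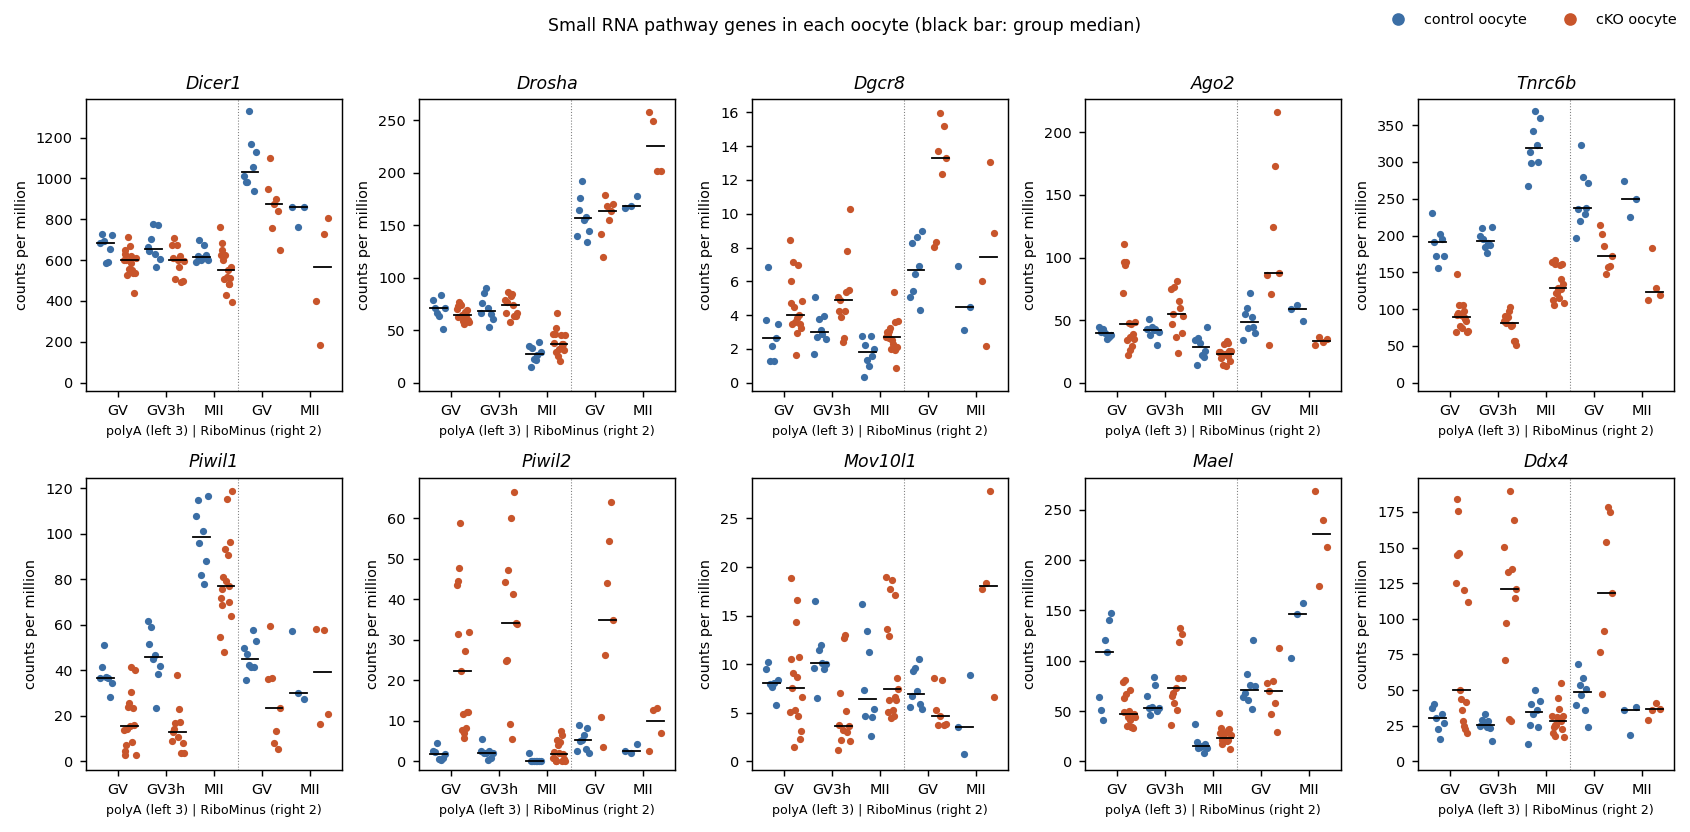
Each panel plots 1 gene: the y axis is CPM (TMM-scaled), each point is 1 oocyte (blue control, orange cKO) and the bar is the group median, with polyA groups to the left of the dotted line and RiboMinus groups to the right. For Tnrc6b all cKO oocytes of each of the 3 polyA stages lie under all control oocytes of the same stage, and for Piwil2 the 15 polyA GV cKO oocytes (5.82 to 58.8 CPM) lie above all 7 controls.

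The first question was which of these genes differ between cKO and control oocytes, tested with edgeR's quasi-likelihood test with Benjamini-Hochberg adjustment over all genes tested. At polyA GV, Piwil2 and Ddx4 were higher in cKO oocytes, and Dicer1, Tnrc6b, Piwil1 and Mael were lower. These 6 of 10 members stand beside a background of 40.4% of 14606 genes called. At polyA GV3h 5 members differed (Piwil2 and Ddx4 higher, Tnrc6b, Piwil1 and Mov10l1 lower; background 55.5%), and at polyA MII 3 did (Piwil2 higher, Tnrc6b and Piwil1 lower; background 37.6%). At RiboMinus GV the count was 6 (Dgcr8, Ago2, Piwil2 and Ddx4 higher, Dicer1 and Tnrc6b lower; background 37.6%), and at RiboMinus MII it was 2 (Mael higher, Tnrc6b lower; background 23.7%). With counts summed per female, the genes called were 0.00555%, 39.7%, 18.3%, 0.0149% and 7.54% of those tested in the same order of comparisons, and 0, 4, 1, 0 and 0 members were called. With the female as a random block in limma voom the backgrounds were 9.44%, 47.1%, 33.1%, 17.8% and 17.1%, and 1, 5, 2, 4 and 2 members were called. Without the cKO female V1131, 0.631% of all genes were called at RiboMinus GV, and 0 members. Member counts near these backgrounds say nothing particular about the set, and the description is of single genes. The median difference over the 10 members was -0.06, 0.21, 0.04, -0.09 and 0.37 (log2) in these 5 comparisons, beside 0.06, 0.03, 0.04, 0.00 and 0.13 over all genes tested.

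Tnrc6b, the silencing partner of Argonautes, was lower in cKO oocytes in all 5 comparisons. At polyA GV the cKO oocytes ranged from 68.2 to 147 CPM with a median of 89.6, and the controls from 155 to 230 with a median of 191. At GV3h the cKO range was 51.2 to 103 CPM (median 81.1) against 176 to 211 (median 192), and at MII it was 106 to 167 (median 129) against 267 to 369 (median 319). The groups did not overlap at any polyA stage. The differences were -1.09 ± 0.12 (log2, SE; adjusted p = 2.48e-07), -1.32 ± 0.12 (1.89e-08) and -1.30 ± 0.09 (3.64e-11). RiboMinus GV oocytes held 148 to 214 CPM (median 171) in cKO and 197 to 323 (median 237) in controls, which overlapped (log2 -0.50 ± 0.12, adjusted p = 0.00423). The 4 RiboMinus MII cKO oocytes held 112, 183, 129 and 119 CPM and the 3 controls 275, 225 and 249, without overlap (log2 -0.82 ± 0.22, adjusted p = 0.0194). The RiboMinus GV call was lost without V1131 (-0.31, adjusted p = 0.332) or V1133 (-0.48, 0.0662), and the RiboMinus MII call without the female V1167 or the oocytes V1167_2, V1145_2 or V1145_4 (0.0508 to 0.0902). Summed per female, the fall passed at polyA GV3h (adjusted p = 0.000387) and polyA MII (0.000492) but not at polyA GV (0.144), RiboMinus GV (0.163) or RiboMinus MII (0.171). All female means of cKO lay under all those of controls in each of the 5 comparisons.

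Ago2, the Argonaute that can cleave its targets, was higher in RiboMinus GV cKO oocytes (30.3 to 216 CPM, median 87.3) than in controls (34.1 to 71.3, median 48.4), by 1.16 ± 0.30 (log2, adjusted p = 0.0072). The groups overlapped, and the adjusted p was 0.196 with counts summed per female. The rise came with 1 female: the 4 oocytes of V1131 averaged 150 CPM and the 3 of V1126 62.3, and without V1131 the difference was 0.32 (adjusted p = 0.575). It was also not called without the control females V1132 (1.10, adjusted p = 0.0801) or V1133 (1.21, 0.0744). The polyA GV difference of 0.45 ± 0.27 did not pass (adjusted p = 0.188). There the 5 oocytes of V857 averaged 93.8 CPM and the 10 of V888 36.5, beside 42.7 and 37.2 in the control females, and without V888 the difference was 1.22 (adjusted p = 5.19e-07). At MII the sign was the opposite in both library types, with no call: -0.35 ± 0.19 in polyA (adjusted p = 0.145) and -0.71 ± 0.25 in RiboMinus (0.0507). The RiboMinus MII oocytes did not overlap, with 30.2, 36.2, 32.4 and 34.6 CPM in cKO and 59.1, 62.3 and 49.5 in controls, and the difference was called without V1166_2 (-0.76, adjusted p = 0.0396). At polyA GV3h it was 0.41 ± 0.18 (adjusted p = 0.0579), and 0.50 without V983 (0.0032).

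Dicer1, the enzyme shared by the microRNA and small interfering RNA routes, was slightly lower in GV cKO oocytes. PolyA GV cKO oocytes held 437 to 711 CPM (median 599) and controls 583 to 728 (median 682), a difference of -0.20 ± 0.08 (adjusted p = 0.0428). RiboMinus GV values were 649 to 1100 CPM (median 874) and 940 to 1330 (median 1030), a difference of -0.32 ± 0.11 (adjusted p = 0.0356). The ranges overlapped in both library types. Scaled to library totals, the differences were -0.05 (adjusted p = 0.616) and -0.22 (0.075). Both calls were lost without any 1 of the 4 females of the comparison (adjusted p = 0.0545 to 0.207 in polyA and 0.12 to 0.529 in RiboMinus), the RiboMinus female V1126 excepted. At polyA GV3h and MII the differences were -0.19 ± 0.08 (adjusted p = 0.0559) and -0.21 ± 0.09 (0.0717), the latter called without V841 (-0.27, adjusted p = 0.0181) or V842 (-0.25, 0.0372). In the 4 RiboMinus MII cKO oocytes Dicer1 was spread over 399, 185, 730 and 808 CPM, against 859, 764 and 860 in controls, and the difference of -0.59 ± 0.37 did not pass (adjusted p = 0.279). Without V1167, whose oocytes held the higher values, it was -1.42 (adjusted p = 0.0112).

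Of the microprocessor genes, Drosha had no call in the 5 comparisons. It differed by -0.10 ± 0.09 at polyA GV, 0.02 ± 0.11 at GV3h and -0.02 ± 0.10 at RiboMinus GV, with no call. At MII its level was 37.1 CPM (median, range 20.4 to 66.6) in polyA cKO and 27.5 (15.1 to 38.6) in controls, a difference of 0.45 ± 0.19 that did not pass (adjusted p = 0.0602). The RiboMinus MII oocytes held 258, 249, 202 and 202 CPM in cKO and 167, 169 and 178 in controls, without overlap, and this difference of 0.47 ± 0.20 did not pass either (adjusted p = 0.107). Drosha was called at polyA MII without V897 (0.71, adjusted p = 0.0443) or V896 (0.57, 0.0371) and at RiboMinus MII without V1167 (0.65, 0.0419). Dgcr8 was low throughout, and it was called in 1 comparison. At RiboMinus GV it rose from 4.29 to 8.95 CPM (median 6.68) in controls to 8 to 16.0 (median 13.3) in cKO oocytes, by 0.87 ± 0.22 (adjusted p = 0.00619, and 0.184 with counts summed per female). Its differences in the other 4 comparisons were 0.55 to 0.69, with no call. The RiboMinus GV call was lost without V1131 (0.58, adjusted p = 0.347) or V1132 (0.77, 0.0731), and at polyA GV3h a call was gained without V983 (0.86, 0.00785).

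Piwil2, the PIWI gene that is low in control oocytes, showed the highest fold changes of the set in both library types at GV. The 15 polyA GV cKO oocytes held 5.82 to 58.8 CPM (median 22.4) and the 7 controls 0.433 to 4.62 (median 1.89), without overlap. At GV3h the values were 5.61 to 66.5 CPM (median 34.2) and 0.413 to 5.62 (median 2.09), so that 10 of 11 cKO oocytes exceeded every control. The differences were 3.68 ± 0.56 (adjusted p = 2.17e-05) and 3.92 ± 0.45 (4.44e-07). RiboMinus GV oocytes gave 3.51 to 64.0 CPM (median 34.8) in cKO and 2.15 to 9.04 (median 5.20) in controls, a difference of 2.68 ± 0.48 (adjusted p = 0.00106). Over females only the GV3h rise passed (adjusted p = 0.000258, against 0.144 at polyA GV and 0.124 at RiboMinus GV), while the female means of cKO lay above those of controls in all 3 comparisons. Without V1131 the RiboMinus difference was 1.37 (adjusted p = 0.181).

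At polyA MII, Piwil2 had few counts. Of 8 control oocytes 6 had no count, 1 had 1 count and V836_1 had 13, while the 15 cKO oocytes held 0 to 51 counts (0 to 7.4 CPM, median 1.71). The fitted difference of 2.95 ± 1.06 (adjusted p = 0.0286) therefore rests on few counts, and it was 2.09 (adjusted p = 0.277) without control female V853 and 2.57 (0.0919) without V896. Over females it was 2.12 and not called (adjusted p = 0.292), nor with the random block (adjusted p = 0.0995). In RiboMinus MII the median was 9.87 CPM in cKO and 2.53 in controls (1.62 ± 0.70, adjusted p = 0.113).

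Piwil1, the other PIWI gene, was lower in cKO oocytes at the 3 polyA stages. PolyA GV values were 2.77 to 41.4 CPM (median 15.7) in cKO and 28.3 to 51.0 (median 36.7) in controls, and 12 of 15 cKO oocytes lay under every control. GV3h values were 3.56 to 37.9 CPM (median 12.9) and 23.5 to 61.6 (median 46.0), and 10 of 11 cKO oocytes lay under every control. The falls were -1.08 ± 0.39 (adjusted p = 0.0287) and -1.70 ± 0.33 (0.000144). At MII the medians were 77.2 CPM in cKO and 98.7 in controls (log2 -0.34 ± 0.14, adjusted p = 0.0499). Summed per female, the GV3h fall passed (adjusted p = 0.00293), and the GV and MII falls did not (0.237 and 0.0508). At polyA GV the call was lost without V857, V856 or V889 (log2 -0.74, -0.95 and -1.29, adjusted p = 0.0646 to 0.154), and at MII without any of 5 of the 6 females (log2 -0.47 to -0.26, adjusted p = 0.0501 to 0.186). RiboMinus GV oocytes gave medians of 23.6 and 44.8 CPM (log2 -0.83 ± 0.37, adjusted p = 0.0861). There the 4 oocytes of V1131 averaged 12.7 CPM and the 3 of V1126 44.0, and without V1126 the difference was -1.88 (adjusted p = 3.23e-05). RiboMinus MII oocytes overlapped, with 58.4, 16.4, 57.9 and 20.7 CPM in cKO and 57.1, 29.9 and 27.5 in controls (0.07 ± 0.46, adjusted p = 0.935).

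Ddx4, the germ granule helicase, was higher in cKO oocytes at GV and GV3h in every comparison. PolyA GV values were 19.7 to 184 CPM (median 49.9) in cKO and 15.7 to 40.3 (median 30.3) in controls, and GV3h values were 28.6 to 190 (median 121) and 14.4 to 33.1 (median 25.6). In RiboMinus GV oocytes they were 47.6 to 178 CPM (median 118) and 24.0 to 68.4 (median 48.6). The rises were 1.48 ± 0.44 (adjusted p = 0.00876), 2.12 ± 0.30 (4.47e-06) and 1.34 ± 0.26 (0.00159). Some cKO oocytes stayed in the control range: 5 of 15, 2 of 11 and 1 of 7. Over females only the GV3h rise passed (adjusted p = 0.000228, against 0.206 and 0.145). The polyA GV difference was 0.73 (adjusted p = 0.0873) without V857 and 1.17 (0.216) without V889, and the RiboMinus GV difference was 0.62 (0.251) without V1131. At MII Ddx4 was not called, with medians of 28.3 against 34.6 CPM in polyA (-0.20 ± 0.21, adjusted p = 0.479) and 36.5 against 36.1 in RiboMinus (0.26 ± 0.31, adjusted p = 0.599).

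Mael, needed for piRNA production and transposon control in germ cells, was called lower in cKO oocytes at polyA GV and higher at RiboMinus MII. At polyA GV it was lower in cKO oocytes, with 33.3 to 80.4 CPM (median 47.5) against 41.2 to 148 (median 109), by -0.93 ± 0.22 (adjusted p = 0.0018). This call rested on 1 control female: the 4 oocytes of V889 averaged 129 CPM and the 3 of V856 52.2, beside 67.6 and 43.4 in the cKO females V857 and V888. Without V889 the difference was -0.08 (adjusted p = 0.856), and without V888 it was -0.54 (0.118). At RiboMinus MII Mael was higher in cKO, with 268, 174, 240 and 212 CPM against 102, 146 and 157 in controls, which did not overlap (0.79 ± 0.23, adjusted p = 0.0277). That call was lost with counts summed per female (adjusted p = 0.313) and without 5 of the 7 oocytes in turn or the female V1167 (0.0537 to 0.138). The other comparisons had no call, but a rise was called at polyA GV3h without V946 (0.69, adjusted p = 0.00567) or V983 (0.51, 0.0434) and at polyA MII without V836 (0.90, 0.00241).

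Mov10l1, a piRNA biogenesis helicase, was called at polyA GV3h only. Values there were 1.14 to 13 CPM (median 3.65) in cKO and 6.53 to 16.5 (median 10.1) in controls, and 8 of 11 cKO oocytes lay under every control (-1.06 ± 0.37, adjusted p = 0.0171). The call was lost with counts summed per female (adjusted p = 0.0739) and without V946, V993, V951 or V995 (0.0611 to 0.133). In RiboMinus MII oocytes the values were 17.8, 18.3, 27.8 and 6.67 CPM in cKO and 3.51, 0.796 and 8.93 in controls, a difference of 2.06 ± 0.72 that did not pass (adjusted p = 0.0538), and that was 2.34 without V1167_2 (adjusted p = 0.0383) and 3.09 without V1145_4 (0.0236).

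**Figure D2:**
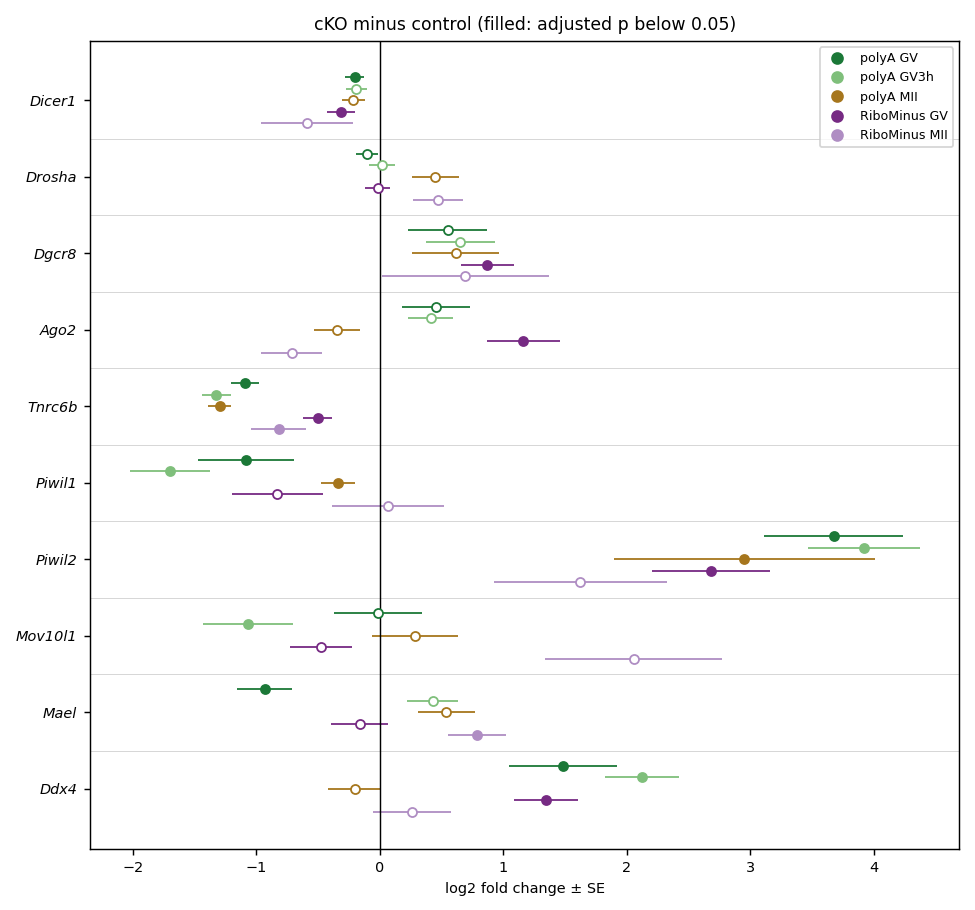
The x axis is the log2 fold change of cKO over control oocytes with its standard error and the rows are the 10 genes, with 1 point for each of the 5 comparisons; filled points have an adjusted p below 0.05. Tnrc6b lies left of 0 in all 5 comparisons (-1.32 to -0.50), and Piwil2 is farthest to the right, at 3.92 in polyA GV3h.

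In immature cKO oocytes, the means of several members differed between females, with 2 or 3 females a group. In polyA GV, the 5 oocytes of V857 averaged 155 CPM for Ddx4, 45.2 for Piwil2 and 8.51 for Piwil1, and the 10 oocytes of V888 averaged 49.8, 14.7 and 22.9. In RiboMinus GV, V1131 averaged 156 CPM for Ddx4, 49.3 for Piwil2 and 12.7 for Piwil1, and V1126 averaged 71.8, 13.5 and 44.0. In polyA GV3h, V993 had the highest Ddx4 and Piwil2 means (135 and 44.0 CPM) and the lowest Piwil1 mean (8.23), and V983 had the lowest Ddx4 and Piwil2 means (82.7 and 25) and the highest Piwil1 mean (23.8). So in all 3 sets of immature cKO oocytes the female with the highest Ddx4 mean also had the highest Piwil2 mean and the lowest Piwil1 mean. Oocytes of 1 female differed too: the 3 of V983 ranged from 28.6 to 190 CPM for Ddx4. No test was run on this pattern, which was noticed in the data and covers 7 females.

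**Figure D3:**
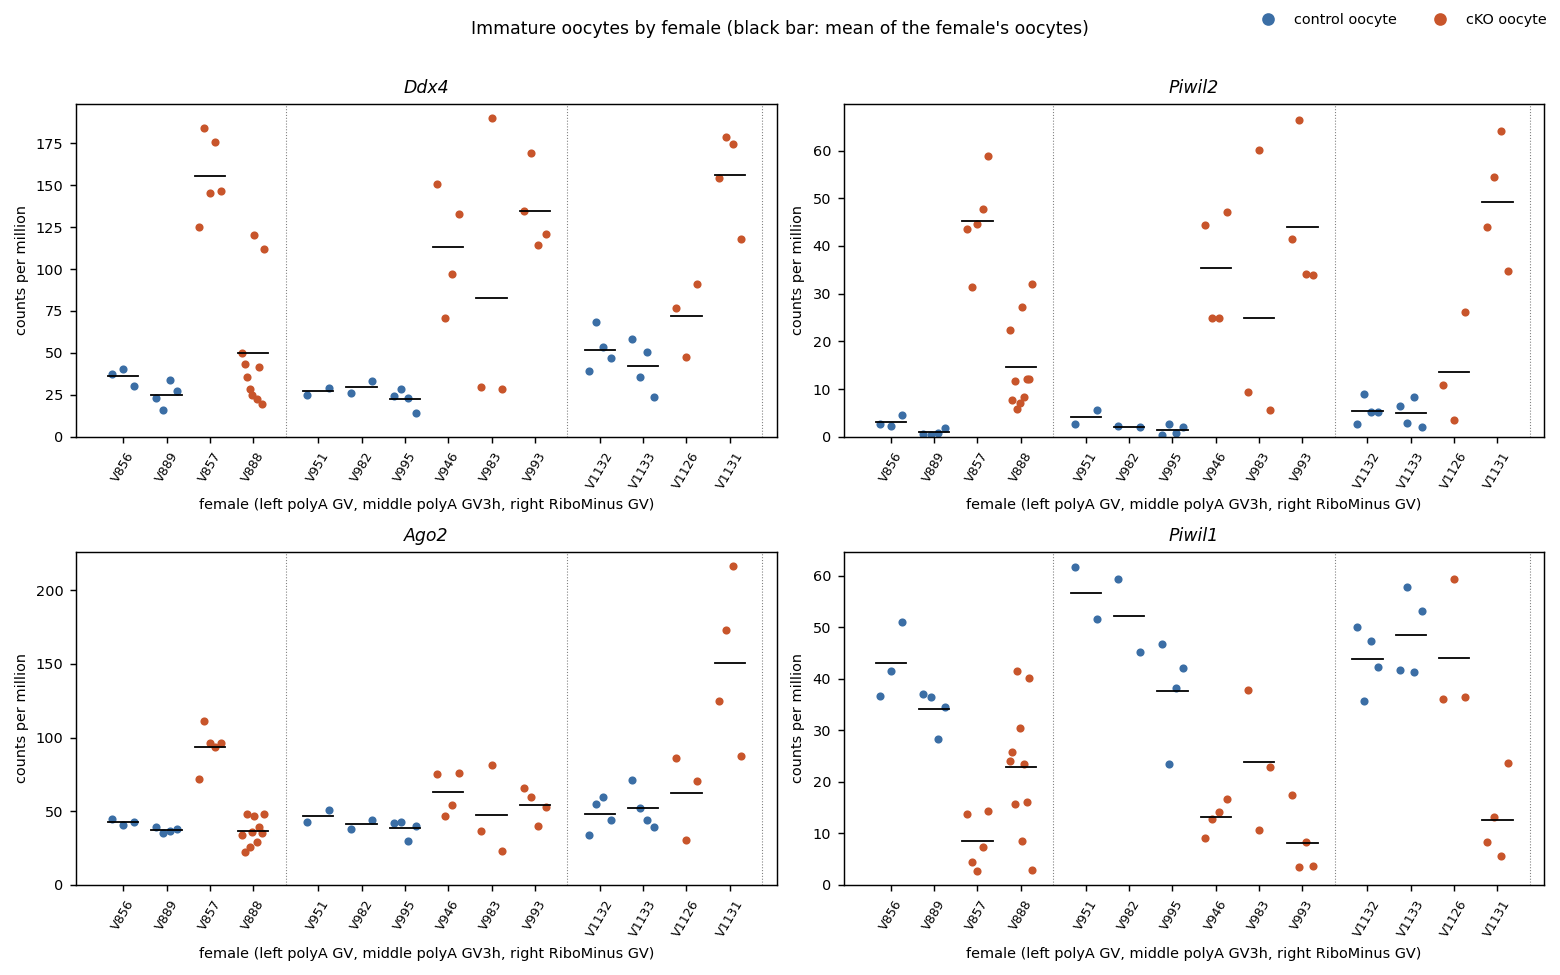
The y axis is CPM for Ddx4, Piwil2, Ago2 and Piwil1 in each immature oocyte, grouped on the x axis by female, with polyA GV to the left, polyA GV3h in the middle and RiboMinus GV to the right; bars are means of a female's oocytes. The oocytes of V857 and V1131 stand high for Ddx4, Piwil2 and Ago2 and low for Piwil1 (means of 8.51 and 12.7 CPM).

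During the 3 hours of culture, from GV to GV3h, 0 of 10 members changed in control oocytes (background 0.519%) and 0 of 10 in cKO oocytes (background 0.602%) by edgeR. In controls no member but Mael (-0.69 ± 0.23, adjusted p = 0.233) differed by more than 0.38 in either direction. In cKO oocytes Mael differed by 0.66 ± 0.19 (adjusted p = 0.106, and 0.0395 with DESeq2, whose other 9 members had no call), and Mov10l1 by -0.68 ± 0.39 (adjusted p = 0.491); the other 8 lay between -0.34 and 0.53. The genotype difference in this change was called for 0 members (background 0.0959%). Mael had the lowest adjusted p (1.36 ± 0.32, adjusted p = 0.0781, and 0.0151 with DESeq2). With counts summed per female, 0 of 19251 genes were called in cKO oocytes and 0 of 19257 for this genotype difference. Mael means differed between females: V889 averaged 129 CPM and V856 52.2 in GV controls, and no GV3h control female averaged above 65.3. At GV3h, the cKO female V993 averaged 115 CPM, V946 56.9 and V983 68.8, beside 67.6 and 43.4 in the GV cKO females. The part of single females in these Mael values was not tested.

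From GV to MII the polyA libraries showed large changes. In control oocytes 5 of 9 members tested changed (background 63.4%): Tnrc6b and Piwil1 rose, and Drosha, Ago2 and Mael fell. Piwil2 was too low to be tested. Piwil1 went from 28.3 to 51.0 CPM at GV to 77.9 to 117 at MII, without overlap, a rise of 1.36 ± 0.14 (adjusted p = 5.11e-08). Tnrc6b rose by 0.76 ± 0.09 (adjusted p = 9.26e-07), also without overlap. Mael went from 41.2 to 148 CPM to 7.97 to 37.3, a fall of -2.50 ± 0.32 (adjusted p = 1.46e-06), and Drosha from 51.0 to 83.8 to 15.1 to 38.6, a fall of -1.34 ± 0.18 (adjusted p = 2.5e-06). Neither gene had overlapping oocytes. The Ago2 fall was -0.48 ± 0.20 (adjusted p = 0.0415), and it was lost with counts summed per female (adjusted p = 0.219) and without V856, V889, V836 or V853 (0.0558 to 0.196). The other 4 calls held with counts summed per female (adjusted p = 0.000759 to 0.00604), where 43.1% of genes were called, and all 5 with the random block, where 62.1% were.

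In polyA cKO oocytes 8 of 10 members changed from GV to MII (background 74.8%). Tnrc6b (0.57 ± 0.10) and Piwil1 (2.13 ± 0.29) rose as in controls. Drosha (-0.78 ± 0.12), Dgcr8 (-0.73 ± 0.23), Ago2 (-1.28 ± 0.21), Piwil2 (-3.36 ± 0.53), Mael (-1.01 ± 0.16) and Ddx4 (-1.54 ± 0.30) fell, with adjusted p of 5.89e-08 to 0.00482 over the 8 genes. Piwil2 went from a median of 22.4 CPM to 1.71 and Ddx4 from 49.9 to 28.3. Summed per female, Drosha, Dgcr8 and Mael were not called (adjusted p = 0.0659, 0.255 and 0.0654; background 37.7%). The random block left 7 of the 8 calls, Dgcr8 excepted (adjusted p = 0.135; background 58.9%). Without V857 or without V897 the call of Dgcr8 was also lost (-0.49 and -0.62, adjusted p = 0.0889 and 0.131). Scaled to library totals, the Tnrc6b rise was 0.12 (adjusted p = 0.283). That scaling moved the median change of all genes in controls from -0.078 to -0.459 and the share of rises among calls from 47.5% to 31.6%. In cKO oocytes the median moved from -0.171 to -0.619 and the share from 44.3% to 27.9%.

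RiboMinus libraries, made without poly(A) selection, gave another picture of the same transition. In controls, 2 of 10 members changed (background 30.9%): Mael rose from 52.2 to 121 CPM at GV to 102, 146 and 157 at MII (0.84 ± 0.19, adjusted p = 0.00236), and Dicer1 fell from 940 to 1330 to 859, 764 and 860 (-0.38 ± 0.12, adjusted p = 0.0185). The Dicer1 fall was not called with counts summed per female (adjusted p = 0.0501), without V1133 (0.0518) or without the control oocyte V1145_3 (0.0835). All 3 MII control oocytes came from 1 female. Changes of Ddx4 without V1133 (-0.77, adjusted p = 0.0458), Piwil1 without V1145_2 (-0.69, 0.0182) and Mov10l1 without V1145_4 (-1.83, 0.0115) were called in controls. The backgrounds were 27.9% with counts summed per female, where 1 member was called, and 43.2% with the random block, where 4 were. In cKO oocytes 5 of 10 changed (background 16.1%): Drosha (0.55 ± 0.15), Mov10l1 (1.70 ± 0.39) and Mael (1.73 ± 0.28) rose, and Ago2 (-1.74 ± 0.41) and Ddx4 (-1.74 ± 0.33) fell, with adjusted p of 0.00273 to 0.026. Over females none of the 5 was called by edgeR (adjusted p = 0.105 to 0.363), as 0 of 20796 genes were, with 3654 genes at an unadjusted p under 0.05. The random block called 2, Mael and Ddx4 (adjusted p = 0.0208 and 0.0279; background 4.65%). Without V1131, Drosha, Ago2, Mov10l1 and Ddx4 lost their calls (0.64, -0.90, 1.59 and -1.01, adjusted p = 0.0954 to 0.179), as they did without V1166 (0.36, -1.75, 1.66 and -1.63, adjusted p = 0.064 to 0.213). Without V1167 the Ago2 change was -1.74 (adjusted p = 0.0761), and without the oocyte V1166_1 the Drosha change was 0.51 (0.0656). Calls were gained without V1126 for Piwil1 (1.60, adjusted p = 0.0421) and Piwil2 (-2.48, 0.00279) and without V1167 for Dicer1 (-1.55, 0.0111).

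The difference between the library types in the stage change was tested as an interaction. In controls it was called for 5 of 10 members (background 49.6%): the polyA change exceeded the RiboMinus change for Piwil1 (1.81 ± 0.26, adjusted p = 5.5e-07), Tnrc6b (0.93 ± 0.17, 3.16e-05) and Dicer1 (0.45 ± 0.13, 0.00399), and was below it for Mael (-3.17 ± 0.42, 1.18e-07) and Drosha (-1.29 ± 0.23, 2.45e-05). In cKO oocytes the same 5 genes were called in the same directions (background 45.6%), with 1.80 ± 0.64 for Piwil1, 1.18 ± 0.20 for Tnrc6b, 0.85 ± 0.24 for Dicer1, -2.50 ± 0.32 for Mael and -1.08 ± 0.21 for Drosha (adjusted p of 1.18e-08 to 0.019). Summed per female, Mael and Tnrc6b were called in both genotypes (adjusted p = 0.00672 and 0.00596 in controls, 0.00267 and 0.02 in cKO), and Drosha and Piwil1 in controls alone (0.00833 and 0.00094, against 0.0572 and 0.144), beside backgrounds of 29.2% and 12.2%. The calls in controls rest on 1 summed sample at RiboMinus MII. Dicer1, summed per female, was called in neither genotype (adjusted p = 0.193 in cKO). With the random block the backgrounds were 51.1% and 28.1%. Scaled to library totals, the Dicer1 value was -0.03 in controls and 0.16 in cKO (adjusted p = 0.844 and 0.628). With that scaling the Piwil1 value in cKO was 1.11 (adjusted p = 0.14). The 2 library types came from different oocytes and females.

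The genotypes differed in the GV-to-MII change for 3 members in polyA libraries (background 14.7%). The cKO change exceeded the control change for Mael (1.51 ± 0.33, adjusted p = 0.00101) and Drosha (0.59 ± 0.21, 0.0485) and was below it for Ddx4 (-1.66 ± 0.47, 0.0123). In RiboMinus libraries it was called for 2 (background 14.8%), below the control change for Ago2 (-1.94 ± 0.46, adjusted p = 0.00648) and above it for Mov10l1 (2.46 ± 0.67, 0.0161). None of these 5 was called over females (adjusted p = 0.176 to 0.398; backgrounds 0.0722% and 0%), nor with the random block (0.0778 to 0.302; backgrounds 3.53% and 4.36%). Without V1145_3 the RiboMinus difference of Ddx4 was called (-1.40, adjusted p = 0.0432).

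Other genes of the microRNA and small interfering RNA pathways, a list of 20, and of the piRNA pathway, a list of 22, were read for comparison. The shares called among all genes, beside which the list counts are read, were 40.4% (GV), 55.5% (GV3h) and 37.6% (MII) in polyA, and 37.6% (GV) and 23.7% (MII) in RiboMinus libraries. In polyA GV cKO oocytes 7 of 20 microRNA and small interfering RNA genes tested were called (4 higher, 3 lower) and 7 of 21 piRNA genes (4 higher, 3 lower). At GV3h the counts were 10 of 17 (6 higher, 4 lower) and 14 of 21 (7 higher, 7 lower), and at MII 8 of 16 (3 higher, 5 lower) and 8 of 19 (5 higher, 3 lower). In RiboMinus they were 4 of 20 (3 higher, 1 lower) and 13 of 21 (4 higher, 9 lower) at GV, and 4 of 20 (all higher) and 7 of 21 (1 higher, 6 lower) at MII. The list medians at polyA GV were 0.20 and 0.16 (log2), beside 0.06 over all genes. At GV3h they were -0.09 and -0.18, beside 0.03, and at polyA MII -0.08 and 0.27, beside 0.04. In RiboMinus libraries they were 0.19 and -0.05 at GV, beside 0.00, and 0.37 and -0.54 at MII, beside 0.13.

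With counts summed per female, 0 of the 4 genes named at polyA GV were called (adjusted p = 0.144 to 0.165). At RiboMinus GV 0 of 4 were called (0.124 to 0.172), and at polyA GV3h and polyA MII 4 of 4 each. In that order these stand beside 0.00555%, 0.0149%, 39.7% and 18.3% of all genes called. At RiboMinus MII, where the controls are 1 sample, the log2 values were 3.57 (Ago1), 1.72 (Dis3l2), -1.80 (Rnf17) and -1.70 (Gtsf1). The values that follow are over oocytes.

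Among these genes, Gpat2, a mitochondrial acyltransferase tied to piRNA production, rose most in polyA GV and GV3h cKO oocytes (3.06 ± 0.50 and 2.62 ± 0.33), from medians of 4 and 5.11 CPM in controls to 29.1 and 33.7. Pld6, the mitochondrial surface nuclease of piRNA maturation, rose by 1.47 ± 0.23 at GV3h and 1.25 ± 0.23 at RiboMinus GV. Ago3, another Argonaute, fell at polyA GV, polyA GV3h and RiboMinus GV (-0.97 ± 0.16, -1.22 ± 0.18 and -0.90 ± 0.18), and the 15 polyA GV cKO oocytes (63.7 to 161 CPM) lay under all 7 controls (171 to 216). Tnrc6a, a paralogue of Tnrc6b, was higher in cKO oocytes where it was named: it rose by 0.88 ± 0.16 at polyA MII and 1.58 ± 0.23 at RiboMinus GV. Gtsf1, a piRNA pathway zinc finger protein, fell at RiboMinus GV (-1.0 ± 0.22) and RiboMinus MII (-1.65 ± 0.28), where Rnf17, a tudor domain protein, fell alike (-1.66 ± 0.25). Ago1 rose at RiboMinus MII (3.59 ± 0.65), from a median of 1.09 CPM to 11.5. The adjusted p of these named values ran from 1.09e-06 to 0.00309.
The others named by the same rule were Srrt, which rose (1.46 ± 0.22), and the tudor gene Tdrd1, which fell (-0.74 ± 0.09), at polyA GV. Lin28b, a microRNA-binding protein gene, fell at GV3h (-1.12 ± 0.21). At polyA MII Gtsf2 rose (1.41 ± 0.21) and Tut7 (-1.18 ± 0.21) and Ddx17 (-1.07 ± 0.16) fell, and at RiboMinus MII Dis3l2 rose (1.77 ± 0.49, adjusted p = 0.0216).

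Gtsf1, like Mael, changed in opposite directions in the library types. From GV to MII it fell by -3.28 ± 0.18 in polyA controls (median 376 to 38.7 CPM, adjusted p = 1.89e-11) and rose by 1.25 ± 0.19 in RiboMinus controls (median 159 to 432 CPM, adjusted p = 5.32e-05). Tarbp2, the RNA-binding partner of Dicer, fell by -3.30 ± 0.29 in polyA controls (adjusted p = 9.01e-09), and its RiboMinus control medians were 14.9 CPM at GV and 11.3 at MII. Beside 63.4% of all genes called in polyA controls and 30.9% in RiboMinus controls, the piRNA list had 13 of 19 and 11 of 22 called and the microRNA and small interfering RNA list 14 of 16 and 6 of 20. Of the piRNA list, 10 of 19 genes tested fell and 3 rose in polyA controls, and in RiboMinus controls 4 of 22 fell and 7 rose. Of the microRNA and small interfering RNA list, 5 of 16 fell and 9 rose in polyA controls, and 5 of 20 fell and 1 rose in RiboMinus controls. Also named by the rule in polyA controls were Dis3l2 (1.71 ± 0.24) and Pld6 (1.25 ± 0.23), which rose, and in RiboMinus controls Fkbp6 (1.01 ± 0.29), which rose, and Dis3l2 (-1.47 ± 0.33) and Exd1 (-0.95 ± 0.29), which fell. In polyA cKO oocytes Gtsf2 (2.45 ± 0.38) and Lin28a (1.08 ± 0.11) rose and Gpat2 (-4.49 ± 0.41) and Pnldc1 (-2.56 ± 0.27) fell. In RiboMinus cKO oocytes Ago1 (1.78 ± 0.37) and Tdrd12 (1.00 ± 0.31) rose and Ddx17 (-1.50 ± 0.29) and Pld6 (-1.14 ± 0.34) fell. Over females, all 4 genes named were called in polyA controls (43.1% of all genes) and polyA cKO oocytes (37.7%). In RiboMinus cKO oocytes 0 of 4 were called (adjusted p = 0.155 to 0.306), as 0 of 20796 genes were. RiboMinus MII controls were 1 summed sample, with changes of 1.26 (Gtsf1), 1.04 (Fkbp6), -1.40 (Dis3l2) and -0.99 (Exd1). These genes were named for large changes in the same oocytes.

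Over the 10 group means of log2(CPM + 1), with each library type centred on its own mean, the gene most like each member among 10957 genes was sought by Pearson correlation, as a description without a test. Each r is among the 2 highest of 10957, so part of its height comes from that choice, and no background was computed. Piwil2 reached the filter of 10 CPM only in immature cKO groups (24.8, 35.7 and 34.0 CPM), and Dgcr8 only in RiboMinus GV cKO (12.4). Piwil2 was nearest to Fastk (r = 0.994) and Maged1 (0.993), and Ddx4 to Armc1 (0.990) and Zfp24 (0.989). Tnrc6b was nearest to Elk4 (0.992) and Tbl1xr1 (0.986), Piwil1 to Zfp280d (0.985) and Strn (0.985), Drosha to Prkag1 (0.992) and B130046B21Rik (0.987), and Dgcr8 to Gcc1 (0.991) and Ankrd52 (0.990). Values were lower for Ago2 (Ubap1, 0.974, and Zfp111, 0.968), Mael (Dazap1, 0.967, and 1700030J22Rik, 0.961), Dicer1 (Ahr, 0.959, and Ythdc2, 0.954) and Mov10l1 (Nav1, 0.958, and Tspan14, 0.933).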

How the data were processed

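Counts of reads per Ensembl gene were deposited by the authors, 1 library per file, and the files were used as raw counts in 86 libraries (64 polyA, 22 RiboMinus). Per the labels' protocols, polyA RNA of each oocyte was caught on oligo(dT) beads, amplified and made into Nextera libraries, and RiboMinus libraries were primed with random hexamers (Ovation Solo kit). Per the submitters' processing notes, cutadapt 2.5, FastQC 0.11.8, STAR 2.7.2a, SAMtools 1.9, HTSeq 0.9.1, R 3.5.1 and DESeq2 1.24.0 were used with build mm10, without a stated role or order. The strand setting, annotation release and removal of duplicates are not given in the sources used here. The labels name a spike-in mix, but 0 gene rows start with ERCC. The 22 rRNA files were not used, and 5 summary lines per file were left out. A table of gene names gave a symbol to 55394 of 55573 IDs, and exon lengths came from GENCODE M21.

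Samples were grouped by library type, stage and genotype from their titles. The 16 comparisons (5 of genotype, 4 from GV to MII, 2 from GV to GV3h and 5 interactions) were each fitted to the groups compared with edgeR 4.0.16 in R 4.3.3 (filterByExpr, TMM factors, glmQLFit and glmQLFTest, two-sided, no covariates), with the oocyte as replicate, and a gene was called at a Benjamini-Hochberg adjusted p under 0.05 over all genes tested. CPM values are TMM-scaled. Piwil2 did not pass the filter in the polyA control GV-to-MII comparison. In simulated counts with known changes, the scripts were checked before use.

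Alternative settings were the DESeq2 1.42.0 Wald test, DESeq2 size factors in edgeR, library totals without TMM, no filter on low counts, only genes averaging 50 counts or more, 1 summed library for each female, limma 3.58.1 voom (random block: female), a joint fit of every group of the same library type, and removal of females or, at RiboMinus MII, oocytes in turn. With counts summed per female, RiboMinus MII had 1 control, which is assumed to vary like the other groups in the fit. The rule for named genes takes all 10 members, and a member given no value in a comparison was not called there. From the 2 other lists, the 2 largest rises and 2 largest falls are named among called genes with an average log2 CPM of at least 3, in each genotype and GV-to-MII comparison, and for each member the 2 genes nearest in Pearson correlation among those with a mean of at least 10 CPM in a group. The members and lists were chosen with earlier results of these data known. Figures were drawn with matplotlib 3.10.9.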

Additional observations from a re-analysis of the deposited data

Results flagged for a closer look

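In 3 of 66 sets of values (1 gene in 1 group of 4 to 10 oocytes, for the 10 members and Exosc10), 1 oocyte stood apart from the rest, where chance gives about 1 in 20. Mael was at 37.3 CPM in the polyA MII control oocyte V836_1 and at most at 19.1 in the other 7. Piwil2 was at 5.62 CPM in the polyA GV3h control oocyte V951_2 and at most at 2.68 in the other 7. It was at 2.10 CPM (13 counts) in the polyA MII control oocyte V836_1 and at most at 0.165 in the other 7.

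Over oocytes, a test of the genotype difference in the GV-to-MII change was passed for Drosha (0.59), Mael (1.51) and Ddx4 (-1.66) in polyA and for Ago2 (-1.94) and Mov10l1 (2.46) in RiboMinus libraries, all on the log2 scale and as cKO minus control. None was called with counts summed per female (adjusted p = 0.176 to 0.398) or with the female as a random block (0.0778 to 0.302). In the polyA GV controls that enter the Mael value, V889 averaged 129 CPM and V856 52.2. In the RiboMinus GV cKO oocytes that enter the Ago2 value, V1131 averaged 150 CPM and V1126 62.3. The part of these females in the interaction was not tested.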

How the results depend on the processing

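Of 57 called values of members, 56 kept their call with DESeq2, 48 with library totals, 51 without the count filter, 39 with the female as a random block and 21 with counts summed per female; leaving out females or oocytes kept 180 and lost 62 of the calls. One called value changed sign: with library totals, Dicer1 in the library-by-stage interaction of controls was -0.03. Of 989 pairs of an uncalled value and a setting, 62 became called.

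Numbers of members called moved as follows. With counts summed per female they were 0 in place of 6 at polyA GV, 1 of 3 at polyA MII, 0 of 6 at RiboMinus GV, 0 of 2 at RiboMinus MII, 5 of 8 for GV to MII in polyA cKO, 1 of 2 and 0 of 5 for RiboMinus control and cKO, 0 of 3 and 0 of 2 for the genotype-by-stage interactions in polyA and RiboMinus, and 2 of 5 for the library-by-stage interaction in cKO. With the random block they were 1 at polyA GV, 4 and 2 for GV to MII in RiboMinus control and cKO, and 0 and 0 for the genotype-by-stage interactions. With DESeq2 they were 5 at polyA MII (40.6% of all genes), 5 at RiboMinus MII (30.3%), and 1 in place of 0 for GV to GV3h in cKO (1.56%) and for its interaction (0.429%). With library totals 8 were called at polyA GV3h in place of 5 (56.6% of all genes), and with all groups in one fit 1 for GV to MII in RiboMinus controls (19.4%). Leaving out females or oocytes gave 2 to 5 at polyA GV (17.7% to 50.3% of all genes), 4 to 8 at GV3h (42.5% to 61.1%), 1 to 3 at polyA MII (18.5% to 36.4%), 0 to 7 at RiboMinus GV (0.631% to 52.7%), 0 to 3 at RiboMinus MII (12.6% to 23%), and for GV to MII 1 to 3 in RiboMinus control (20.3% to 27.8%) and 1 to 7 in RiboMinus cKO (1.16% to 25.2%). The cause was not tested, and sums per female leave 1 to 3 samples a group. Such sums also lowered the share of all genes called, to 0.00555% at polyA GV, 18.3% at polyA MII and 0.0149% at RiboMinus GV. For GV to MII it was 37.7% in polyA cKO and 0% in RiboMinus cKO. For the interactions it was 0.0722% (genotype by stage, polyA) and 12.2% (library by stage, cKO). Shares with the random block were 9.44% at polyA GV and, for GV to MII, 43.2% and 4.65% in RiboMinus control and cKO. Without V1131, 0 of 6 calls remained at RiboMinus GV, where 0.631% of all genes were called.

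Library totals moved the median genotype difference of all genes from 0.056 to 0.209 at polyA GV, 0.031 to 0.204 at GV3h and 0.038 to 0.138 at MII, and the higher share of calls from 54.3% to 70.3%, 53% to 67.3% and 50.5% to 61.9%; at RiboMinus GV they went from 0.001 to 0.102 and from 56.2% to 66.3%. In the polyA genotype-by-stage interaction the median went from 0.103 to 0.010 and the share from 64.9% to 52.1%, and in the library-by-stage interactions the shares went from 49.3% to 33.8% (controls) and 50.4% to 23.7% (cKO).

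No paired analysis was possible because the groups compared share no female or oocyte: equal replicate numbers link only RiboMinus and rRNA files of the same oocytes, and the latter were not used. Piwil2 had no count in 6 of 8 polyA MII controls. Before scaling, their libraries held 6863768 to 8459101 gene counts and those of polyA GV controls 5535240 to 6700256. The TMM factors were 0.7709 to 0.8427 at MII and 1.0348 to 1.0750 at GV. The part of depth in these zeros was not tested.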
